A study of Bos taurus with 4 samples.

Results

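Replacement histone variants were compared in spermatozoa of high- and low-fertile Murrah buffalo bulls. The 7 genes that the array names H3F3A, H3F3B, H2AFZ, H2AFV, H2AFX, H2AFJ and H2AFY were taken, with every sample probe that carries one of these names. This gave 22 probes on 24 spots, out of 51282 sample probes with 32429 gene names. The current symbols of the genes, in the same order, are H3-3A, H3-3B, H2AZ1, H2AZ2, H2AX, H2AJ and MACROH2A1. H3F3B was among the genes that the study singled out from these same arrays, so its difference here is not independent evidence.

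The samples were RNA from Percoll-selected spermatozoa of breeding bulls, graded as high or low fertile by field conception rate. There were 2 high-fertile pools (called 1 and 2) and 2 low-fertile pools, each of RNA from 2 bulls. The labels give neither age nor treatment, and they do not say which bull went into which pool. The RNA was copied from an oligo-dT primer, labelled with 1 dye and hybridized to 60-base probes of an Agilent array designed for cattle. The labels call the organism Bos taurus although the sample descriptions say buffalo, and how well the cattle probes match buffalo transcripts was not analysed here.

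Most histone genes are expressed while DNA is being copied, and their messages end without a poly(A) tail. Most replacement variants are instead made throughout the cell cycle and in cells that no longer divide, from messages with a poly(A) tail, and chaperones place them into chromatin outside replication. In spermatids most histones are then removed, first in favour of transition proteins and finally of protamines, which pack the sperm DNA. H3F3A and H3F3B encode the same H3.3 protein from separate genes. H2AFZ and H2AFV encode closely related forms of H2A.Z, H2AFX encodes the variant phosphorylated at DNA breaks, H2AFJ encodes H2A.J and H2AFY encodes macroH2A.

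The probe sequences bear on which message each signal can come from. Each of the 22 probes was searched for a run of 20 or more bases shared with any other probe of the array, on either strand. The H3F3B probe A_73_P328471, at chr19:57543547-57543606 on the plus strand of Btau_3.1, is shown whole, with the 20 bases that it shares with a probe for the replication-type histone H3.2 gene LOC504599 in capitals.
H3F3B A_73_P328471: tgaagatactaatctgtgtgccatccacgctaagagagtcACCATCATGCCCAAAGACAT
The brightest H3F3B probe, A_73_P083725 at chr19:57544048-57544107, shared no such run with any other probe. Its first 30 bases are shown for comparison.
H3F3B A_73_P083725: tgggctttttcaagggtgaagatacaagtc
The H3F3A probe A_73_P339481, at chr16:26113337-26113396 on the plus strand, shared a run of 48 bases with A_73_P490513, a probe without a gene name. The first 30 bases of the run are shown in capitals.
H3F3A A_73_P339481: AAGCATTAATGAAAGTCAAAATGTTTCAGT
Among the H2AFZ probes, A_73_P037131 at chr6:26436620-26436679 and A_73_P417811 at chr6:26436597-26436655, both on the plus strand, shared a run of 36 bases, so they read largely the same stretch of the message. The first 30 bases of that run are shown in capitals.
H2AFZ A_73_P037131: TTGGTTTTGTACAGACATTATTTCCACTCT
The rest of A_73_P037131 holds the letters AATAAA, the usual polyadenylation signal, given here in capitals.
H2AFZ A_73_P037131: ggtggataagctcAATAAAggtcatatccc
These letters were found on either strand in 2 of the 22 probes (1 each of H2AFZ and H2AFX) and in 11.3% of all probes of the array. Only the match in H2AFZ lay on the probe's own strand. The files do not annotate exons, and the exon that each probe lies in was not analysed here.

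Of the 22 probes, 14 probes of 6 genes were well above background in both pools of at least 1 group and were tested with all 21033 such probes of the array. A difference is the normalized log2 signal of the low-fertile pools minus that of the high-fertile pools, given with its standard error from limma. In low-fertile spermatozoa, 10 of the 14 tested probes were lower at an adjusted p under 0.05, against 17.6% of all tested probes. They were all 4 probes of H3F3B, all 3 tested probes of H3F3A and all 3 probes of H2AFZ. The 4 tested probes of H2AFV, H2AFJ and H2AFY did not pass the threshold in either direction by limma's adjusted p, and none of them had an unadjusted p under 0.05 either. Over the array 9.22% of tested probes were higher and 26.8% were called in either direction. Of the 14 probes, 5 passed the filter through the high-fertile pair alone, which leaves them dim in at least 1 low-fertile pool. Among the 9 member probes that all 4 arrays measured well above background, 6 were lower and 0 were higher in limma, against 12.9% and 21.6% of the 12552 such probes of the array. With the brightest probe standing for each gene, 3 of 6 tested genes were lower and the other 3 passed no threshold, where 16.3% of all tested genes were lower and 9.6% higher. Of the 3 lower genes, H2AFZ passed the filter through the high-fertile pair alone. With only probes well above background on all 4 arrays, 2 member genes were called. The pools are bulk samples, so fewer cells carrying a message and less of it per cell cannot be told apart.

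**Figure D1:**
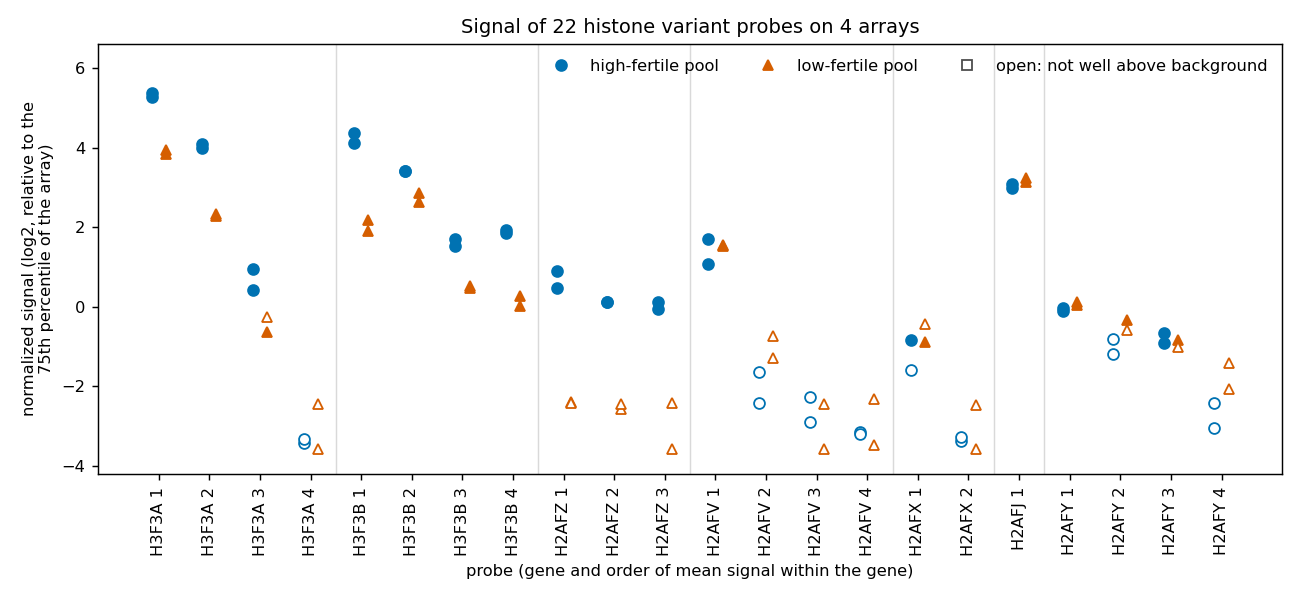
Normalized signal of the 22 probes, grouped by gene and ordered by mean signal within a gene. The vertical axis is the log2 signal relative to the 75th percentile of the array, each point is 1 pool (circles for high-fertile, triangles for low-fertile), and open points were not well above background. The triangles lie below the circles at every tested probe of H3F3A, H3F3B and H2AFZ.

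In the plot of the pool signals by probe, both low-fertile pools lie below both high-fertile pools at the 10 probes that were lower. With 2 pools a group a called difference all but requires that order, so it adds nothing to the calls; 35.5% of all tested probes, called or not, showed it. Slide position and fertility cannot be told apart, since each group took up a row of its own.

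The genes for H3.3 were lower in low-fertile spermatozoa. The brightest H3F3B probe, A_73_P083725, had processed signals of 637 and 763 in high-fertile and 139 and 147 in low-fertile pools. Both low-fertile pools were far below both high-fertile pools, with pools of a group close together: the normalized log2 signal was 4.24 ± 0.17 (SD, n = 2) in high-fertile and 2.04 ± 0.18 (SD, n = 2) in low-fertile spermatozoa. The difference was −2.20 ± 0.18 (adjusted p = 0.00234), a 4.59-fold lower signal.

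At A_73_P066544, at chr19:57543738-57543797, the H3F3B signals were 133 and 142 against 37.3 and 39.7, a difference of −1.75 ± 0.16 (adjusted p = 0.00288). At A_73_P399371, at chr19:57544617-57544676, they were 106 and 121 against 51.0 and 46.6, a difference of −1.13 ± 0.15 (adjusted p = 0.00591). The groups did not overlap at either probe. Both stayed lower but with smaller differences under normexp background correction, −1.11 at A_73_P066544 and −0.52 at A_73_P399371, and under the GC correction, −1.03 and −0.66. The smallest fall was at A_73_P328471, the probe with a run in common with the H3.2 probe, with 389 and 394 against 231 and 238, a difference of −0.65 ± 0.15 (adjusted p = 0.0319, 1.57-fold lower). This call was lost without high-fertile pool 1 (−0.65, adjusted p = 0.120), high-fertile pool 2 (−0.65, adjusted p = 0.125) or low-fertile pool 1 (−0.54, adjusted p = 0.0859), and with a correction for GC content (−0.59, adjusted p = 0.0572), while the difference itself stayed near its size. The H3.2 probe A_73_P092536, which carries the same 20 bases, had signals of 245 and 255 in high-fertile and 273 and 255 in low-fertile pools, a difference of 0.16 ± 0.14 (adjusted p = 0.427). The part of the shared run in the smaller fall was not tested.

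The 3 tested H3F3A probes also lay lower, each by over 1 log2 unit. The brightest, A_73_P333246 at chr16:26113098-26113157, had signals of 1519 and 1427 in high-fertile and 528 and 498 in low-fertile pools. Its normalized log2 signal was 5.32 ± 0.08 (SD, n = 2) in high-fertile and 3.88 ± 0.07 (SD, n = 2) in low-fertile spermatozoa, a difference of −1.43 ± 0.15 (adjusted p = 0.00336, 2.70-fold lower). The gap between groups was many times the spread within either. At A_73_110872, at chr16:26113556-26113615, the signals were 578 and 632 against 181 and 163, a difference of −1.73 ± 0.14 (adjusted p = 0.00244).

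The dimmest tested H3F3A probe, A_73_P339481, had 48.9 and 71.98 against 23.8 and 27.1, a difference of −1.14 ± 0.24 (adjusted p = 0.0229). Low-fertile pool 2 was not well above background there. The probe passed the filter through the high-fertile pair alone, so its adjusted p is given as a description. The unnamed probe A_73_P490513, which holds 48 of the same bases, had signals of 53.8 and 61.4 against 17.9 and 17.4, a difference of −1.62 ± 0.15 (adjusted p = 0.00298), in the same direction. The call at A_73_P339481 was lost under normexp background correction, where the difference was −0.32 (adjusted p = 0.0567), under the GC correction (−0.66, adjusted p = 0.112), without high-fertile pool 2 (−0.87, adjusted p = 0.0888) and without low-fertile pool 1 (−0.95, adjusted p = 0.0684). The fourth H3F3A probe, A_73_P165112, which the files place on no chromosome, had signals between 3.13 and 5.98 and was well above background on no array.

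H2AFZ, the main gene for H2A.Z, was well above background in both high-fertile pools and in neither low-fertile pool. Its probe A_73_P037131 had signals of 68.0 and 51.5 in high-fertile and 7.05 and 6.10 in low-fertile pools, where it was not well above background. Since such values have no level of their own, the brighter group was set against the lowest signal well above background on each low-fertile array, or the probe's own signal where that was higher. The high-fertile signal was 8.27-fold above that floor at this probe (adjusted p = 0.00221). The floor is not a strict detection limit, since brighter probes such as A_73_P339481, at 27.1, were not well above background in low-fertile pool 2, and the true fold can be smaller.

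At A_73_108199, at chr6:26436767-26436826, the signals were 39.6 and 40.5 against 6.28 and 5.99, with the high-fertile signal 5.60-fold above the floor (adjusted p = 0.00221). At A_73_P417811 they were 40.1 and 35.5 against 3.13 and 6.08, or 5.27-fold above it (adjusted p = 0.00507). All 3 probes were well above background in both high-fertile pools and in neither low-fertile pool, so their fitted differences of −3.09 ± 0.19, −2.62 ± 0.14 and −3.02 ± 0.37 rest on dim values. They passed the filter through the group in which they were high, so their adjusted p-values are given as a description and not as support for each other. The scanner had written a surrogate value at all 3 probes in low-fertile pool 2, and at A_73_P417811 in low-fertile pool 1. Under normexp, which adds an offset of 50 to every signal, the 3 differences were −0.95, −0.62 and −0.61 and stayed past the threshold.

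**Figure D2:**
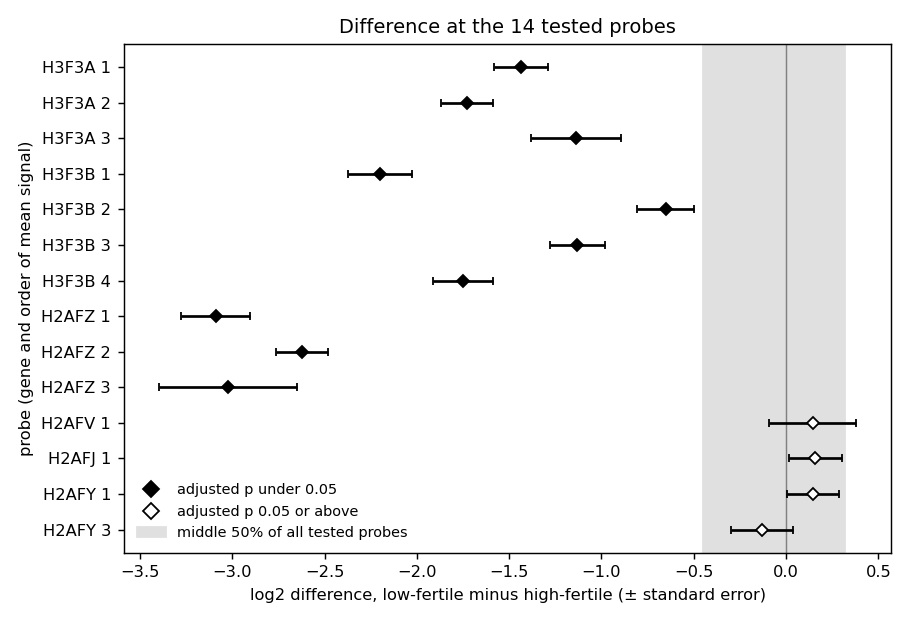
Difference in normalized log2 signal, low-fertile minus high-fertile, at the 14 tested probes, with bars of ± 1 standard error from limma. Filled points passed an adjusted p of 0.05 and the grey band holds the middle 50% of all 21033 tested probes. The 10 probes of H3F3A, H3F3B and H2AFZ lie left of the band, and the other 4 probes have points inside it.

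The middle 50% of all tested probes had differences between −0.45 and 0.32, with a median of 0.00. In the plot of the differences, 3 probes of the H3.3 genes (A_73_P083725 and A_73_P066544 of H3F3B and A_73_110872 of H3F3A) lie beyond −1.62, which 5% of all tested probes fall under. The fitted values of the 3 H2AFZ probes also lie there, but rest on low-fertile signals that were not well above background.

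The remaining H2A variants passed no threshold. H2AFV, the second H2A.Z gene, had signals of 120 and 78.3 in high-fertile and 106 and 96.1 in the low-fertile pools at A_73_P445976 (chr4:79468293-79468352). The groups overlapped, and the difference was 0.14 ± 0.24 (adjusted p = 0.674). Its other 3 probes were well above background on no array, with signals between 3.13 and 19.5. The difference at the H2AFV probe changed sign under spike-in normalization (−0.24) and without high-fertile pool 2 (−0.17).

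H2AFJ had 1 probe, A_73_113287 (chr5:102087424-102087483, minus strand), with signals of 310 and 295 in high-fertile and 328 and 308 in low-fertile pools. The difference was 0.16 ± 0.14 (adjusted p = 0.448). The probe was printed at 2 spots, which did not move the same way. At the spot in row 39 the signals were 243 and 221 against 337 and 304, and at the spot in row 181 they were 396 and 393 against 318 and 313. The first spot was higher and the second lower in both low-fertile pools.

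H2AFY had 2 tested probes. At A_73_112156 (chr7:45995380-45995439, minus strand) the signals were 34.4 and 36.5 against 40.4 and 33.7, a difference of 0.15 ± 0.14 (adjusted p = 0.479). At A_73_P335516 (chr7:46042756-46042815) they were 19.4 and 23.5 against 20.8 and 16.2, a difference of −0.13 ± 0.17 (adjusted p = 0.590), with low-fertile pool 2 not well above background. Neither difference passed the threshold. The normalized log2 signals at A_73_112156 were −0.09 and −0.03 in high-fertile and 0.12 and 0.05 in low-fertile pools. They did not overlap, and 33.6% of all tested probes showed that order. Under the GC correction A_73_112156 passed the threshold as higher (0.90, adjusted p = 0.0143). The other H2AFY probes were well above background in low-fertile pool 1 alone (A_73_P351851) or on no array (A_73_P252976).

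H2AFX, whose product marks DNA breaks, could not be tested. Its probe A_73_P266906 (chr15:28184608-28184667, minus strand) had signals of 12.2 and 21.0 in high-fertile and 20.05 and 24.1 in the low-fertile pools, and was well above background in high-fertile pool 2 and low-fertile pool 1. The second probe, A_73_106514, was well above background on no array. A change in H2AFX was therefore not measurable at these signals.

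The fitted differences varied along H3F3B. In the order of the genome, the differences were −0.65 at the first probe, −1.75 at 191 bases from it, −2.20 at 501 bases and −1.13 at 1070 bases. The log2 signal of A_73_P083725, with the largest fall, minus that of A_73_P328471, with the smallest, was taken in each pool. It was 0.71 and 0.96 in high-fertile and −0.73 and −0.70 in low-fertile pools. An exact permutation test gave p = 0.333, the smallest value that 2 pools against 2 allow, so it cannot decide whether the falls differ.

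**Figure D3:**
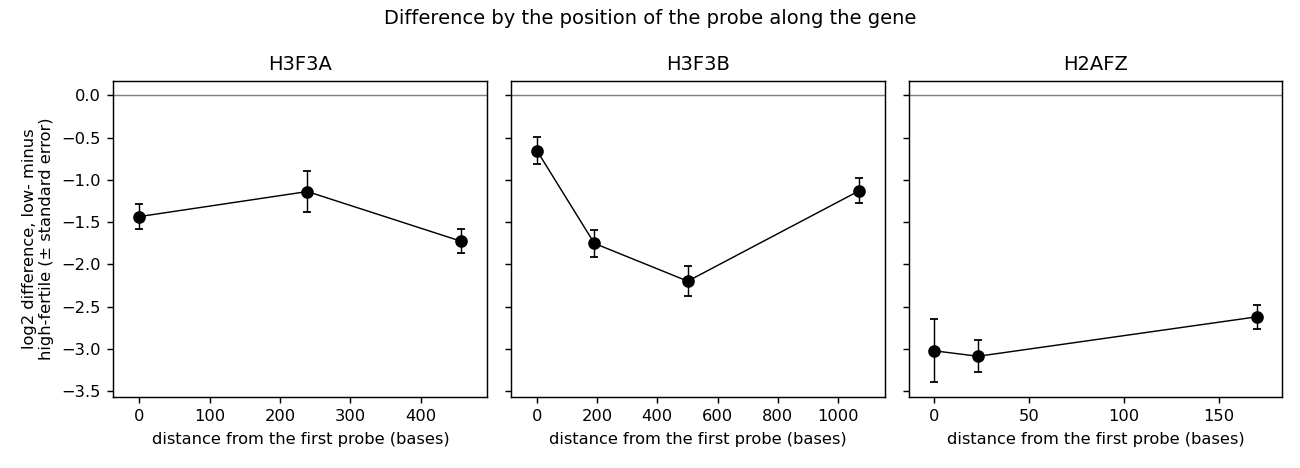
Difference in normalized log2 signal, low-fertile minus high-fertile, with bars of ± 1 standard error from limma, against the distance in bases from the first tested probe along the genome, for H3F3A, H3F3B and H2AFZ. All points lie below 0; those of H3F3B run from −0.65 at the first probe to −2.20 at 501 bases and −1.13 at 1070 bases, while those of H2AFZ are fitted values that rest on low-fertile signals not well above background.

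In the plot by position, the H3F3A probes, at 239 and 458 bases from the first, span −1.14 to −1.73, and the H2AFZ probes, at 23 and 170 bases, span −2.62 to −3.09. The position of a probe within the spliced message was not analysed here. Probe GC content ran from 35% to 45% among the 10 probes that were lower and from 35% to 55% among the other tested probes, and its part in the differences was not tested beyond the GC correction, which left 8 of the 10 calls. The local background of the probes' spots was 22 to 34 on all arrays, and none was marked as an outlier.

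Among proteins that place or remove the variants, the share of lower calls was close to that over the array. Of 29 genes of this list on the array, 19 were tested by their brightest probe, and 3 were lower, 1 was higher and 15 did not pass the threshold, where 16.3% of all tested genes were lower and 9.6% higher. The median difference was −0.11, against 0.01 over all genes tested. SET, a chaperone that also shields histones from acetylation, had signals of 554 and 572 in high-fertile and 146 and 139 in low-fertile pools at its brightest probe, a difference of −1.89 (adjusted p = 0.00223). Its other tested probes differed by −1.59 (adjusted p = 0.00291), −0.46 (0.0727) and −0.11 (0.604), so the fall was not seen at every probe.

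NPM1, a nucleolar chaperone, differed by −0.94 (adjusted p = 0.00792), with signals of 74.1 and 75.9 against 39.4 and 34.3. NAP1L1, which carries H2A-H2B dimers, differed by −0.87 (adjusted p = 0.0107), with 151 and 156 against 81.1 and 77.0. Of its other tested probes, 1 was lower (−1.03, adjusted p = 0.00748) and 2 did not pass the threshold (−0.40, adjusted p = 0.214, and −0.34, adjusted p = 0.145). KAT5, the acetyltransferase of a complex that exchanges H2A.Z, was higher by 0.73 (adjusted p = 0.0296), with 401 and 346 in high-fertile and 574 and 591 in low-fertile pools. Groups did not overlap at the brightest probes of these genes, which adds nothing to the calls. Of all tested probes, called or not, 35.5% had groups apart in the lower direction and 33.6% in the higher.

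Several dedicated chaperones of H3.3 and H2A.Z did not pass the threshold or could not be tested. HIRA, the chaperone that deposits H3.3 at active genes, differed by −0.03 (adjusted p = 0.915), with signals of 33.5 and 34.7 against 29.1 and 34.0. ATRX, which acts with DAXX to place H3.3 at repeats, differed by −0.09 (adjusted p = 0.757), and DAXX itself was well above background on no array. VPS72, which binds H2A.Z, differed by 0.01 (adjusted p = 0.972). ASF1B, a carrier of H3-H4 dimers, differed by −0.18 (adjusted p = 0.429), and ANP32E, which removes H2A.Z, was well above background on no array. These genes and DEK were named after their values were seen. DEK, another H3.3 chaperone, gave different answers at its 3 tested probes. At the probe with the highest mean log2 signal over the 4 arrays the difference was −0.50 (adjusted p = 0.172). The other 2 were lower, with fitted differences of −2.50 (adjusted p = 0.00221, 38.9 and 37.3 against 6.43 and 6.24) and −3.56 (adjusted p = 0.00381, 59.1 and 72.8 against 3.74 and 7.35). Neither low-fertile pool was well above background at those 2 probes, so the sizes rest on dim values.

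Other histone genes were called in both directions, in small numbers. Of 21 such genes on the array, 10 were tested by their brightest probe, 3 were lower, 2 were higher and 5 did not pass the threshold, beside the 16.3% lower and 9.6% higher of all tested genes. Their median difference was 0.22, against 0.01 over all genes tested. This count leaves out calls at other probes of HIST1H1D and HIST1H2AG, genes named after their values were seen. HIST1H1D, untested by its brightest probe, differed by −1.99 (adjusted p = 0.00399) at A_73_P391521, with dim low-fertile signals of 5.53 and 7.19. HIST1H2AG was higher by 0.66 (adjusted p = 0.0266) at A_73_P165502. Its other tested probes did not pass the threshold (0.43, adjusted p = 0.204, and 0.36, adjusted p = 0.191). H3F3C, a copy of the H3.3 gene, had signals of 176 and 182 in high-fertile and 44.8 and 37.8 in low-fertile pools, a difference of −2.03 (adjusted p = 0.00221). Its second tested probe differed by −0.39 (adjusted p = 0.107). HIST1H2AC, a replication-type H2A gene, differed by −1.23 (adjusted p = 0.00732), and HIST1H2BN differed by −0.58 (adjusted p = 0.0373). Most histone messages have no poly(A) tail, and the RNA was copied from an oligo-dT primer. Which form of message the HIST probes and the H3.2 probe read was not analysed here.

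H1FNT, the linker histone of spermatids, was higher by 0.87 (adjusted p = 0.0209), with signals of 28.7 and 36.2 against 63.2 and 48.6, and by 1.15 at its second probe (adjusted p = 0.0106). HIST3H2BB, an H2B gene, was higher by 0.74 (adjusted p = 0.0192). Low-fertile pool 2 was not well above background at the probes of HIST1H2AC, HIST1H2BN and HIST3H2BB.

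**Figure D4:**
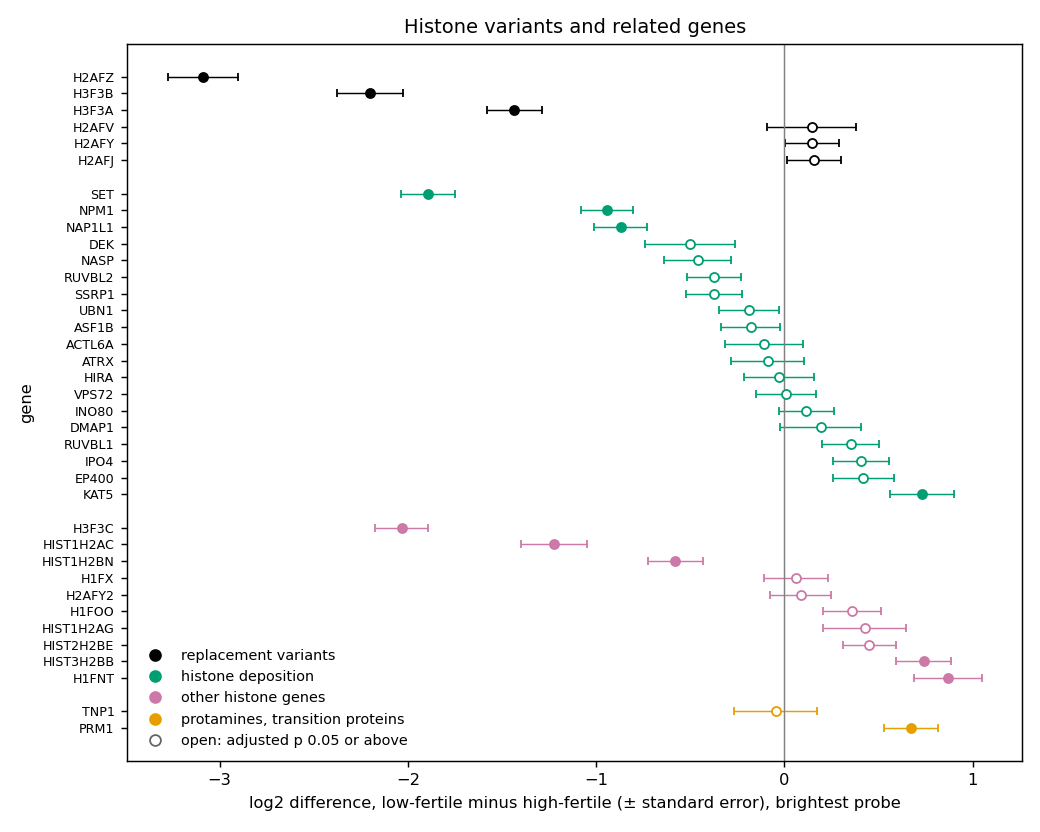
Difference in normalized log2 signal, low-fertile minus high-fertile, at the brightest probe of each tested gene, with bars of ± 1 standard error from limma. Colours mark the replacement variants, the histone deposition list, other histone genes and the protamines and transition proteins, and filled points passed an adjusted p of 0.05. H2AFZ, H3F3B, H3F3C, SET and H3F3A lie farthest to the left, while H1FNT, HIST3H2BB, KAT5 and PRM1 are the filled points on the right.

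The plot of related genes also holds the proteins that take the place of histones. PRM1, the main protamine of bovids, had signals of 46.7 and 46.5 in high-fertile and 71.6 and 68.6 in low-fertile pools, a difference of 0.67 (adjusted p = 0.0231). Its second probe differed by 0.45 (adjusted p = 0.201). TNP1, a transition protein, differed by −0.05 (adjusted p = 0.891), with overlapping groups. The brightest probes of PRM2, PRM3 and TNP2 could not be tested, each being well above background on 1 array. PRM2 had 180 in high-fertile pool 1 and 9.58 to 14.6 in the other pools, and PRM3 had 168 in low-fertile pool 1 and 10.3 to 16.1 in the other pools. TNP2 had 12.3 and 13.0 in high-fertile and 21.6 and 18.9 in the low-fertile pools.

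With each probe's log2 signals centred on their own mean, so that the level plays no part, the genes whose 4 pool signals lay nearest to those of the brightest H3F3B probe were VCL, ENOPH1 and NFATC3. Their root mean square distances were 0.055, 0.057 and 0.077 log2 units over 4 arrays, among 6547 annotated probes well above background on all of them. VCL differed by −2.26, ENOPH1 by −2.27 and NFATC3 by −2.29. With 4 arrays in 2 groups, such likeness is mostly that of a difference of equal size.

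Cell markers were read beside these results. Of 12 sperm and late spermatid genes, 3 were well above background on all 4 arrays, and AKAP4, SMCP, CRISP2 and LDHC on none. Their summed signal was 519 and 546 in high-fertile and 546 and 502 in low-fertile pools. Of 10 leukocyte genes, 6 were well above background on all arrays, CD3E was on none, and the sum was 7960 and 8140 against 12493 and 12349. PTPRC made up most of it, with 6981 and 7126 against 11503 and 11388, a difference of 0.78 (adjusted p = 0.0160). The other 8 leukocyte genes tested did not pass the threshold, with differences from −0.29 at TYROBP to 0.46 at CD74.

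The summed signal of 6 epithelial genes was 749 and 753 against 781 and 776. KRT8, KRT18, KRT19 and CLDN7 were well above background on all 4 arrays, and EPCAM and CDH1 on none. CLDN7 was higher (0.80, adjusted p = 0.0133), with 51.8 and 54.4 against 90.2 and 84.5. KRT8, KRT18 and KRT19 did not pass the threshold (0.28, 0.14 and −0.08). The sum of 4 red cell genes was 187 and 312 against 246 and 236, with HBB higher (1.24, adjusted p = 0.0118), at 20.4 and 29.0 against 54.1 in both low-fertile pools and well above background on 3 arrays. HBA, well above background on all 4, differed by −0.17 (adjusted p = 0.705). Of 7 earlier germ cell genes on the array, 6 were well above background on no array, and the sum was 68.7 and 59.3 against 65.6 and 71.5. Of 3 cycling cell genes, PCNA had 46.5 and 50.8 against 15.2 and 10.3 and was called lower (adjusted p = 0.00310), but was not well above background in either low-fertile pool, and the sum was 55.8 and 63.3 against 28.3 and 23.5. The part of other cells in the differences of the histone variants was not tested.

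The number of probes well above background was 23271 and 23228 on the high-fertile arrays and 25642 and 13033 on the low-fertile arrays, so low-fertile pool 2 marked far fewer probes as measured. The SD of the negative control spots was 27.8 and 10.7 on the high-fertile arrays and 1.94 and 126 on the low-fertile arrays. Leaving out low-fertile pool 2 leaves 1 low-fertile array, with the tested probes chosen as before. The difference was then −2.33 at the brightest probe of H3F3B and −1.48 at that of H3F3A.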

How the data were processed

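The authors extracted the array images with Feature Extraction 11.5.1.1 and deposited, for each array, linear intensity values with the background subtracted and a surrogate where a spot was not above it. They also deposited a table of log2 values shifted by the 75th percentile of each array, used here as an alternative. Here outlier spots were dropped, the log2 intensity was averaged over the spots of a probe and the 75th percentile over all 51282 sample probes was subtracted. Probes well above background (on at least 0.5 of their spots) in both pools of a group, 21033 in all, were compared with limma (version 3.58.1, R 4.3.3) and p-values adjusted by Benjamini-Hochberg. A gene stood as its brightest probe, by mean log2 signal. Python 3.11.15, pandas 2.3.3 and numpy 2.4.6 were used for the rest, and the fit was tested on simulated data. Probe positions are those of Btau_3.1 in the files, and 20 of the 22 probes were matched to current symbols (RefSeq).

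The members, gene lists and alternatives were chosen with earlier results of these data known. Another gene that belongs with these variants is not reported here, and no count of members holds it. The text names all member probes, the 3 called genes of each list with the largest difference in each direction, the protamines and transition proteins, and the 3 genes nearest to H3F3B. Other genes are named as such. Pools with the same number did not deviate together (r = 0.00548 over 21024 probes). The number of arrays limits the precision.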

Additional observations from a re-analysis of the deposited data

How the results depend on the processing

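The count of 10 lower member probes and 0 higher (limma) was found again with the percentile taken over measured probes, quantile normalization, outlier spots kept, an intensity trend, the deposited table and spots on bright patches left out. The replicate block also gave 10 and 0, with 5331 probes called over the array in place of 5632, and changed no member call. Other histone genes then had 4 calls in place of 5. The shared numbers do not pair the pools. Without any filter on dim probes, no probe of the array, no member and no gene of either list passed an adjusted p of 0.05 in limma (0 in each count), while 10 member probes, each of them lower, passed 0.05 before adjustment. After adjustment the methods' t-test also gave 0 calls in each count, and at an unadjusted p under 0.05 and a log2 difference over 1, which is how their fold change over 1 was read here, 8 of 14 member probes passed among 2277 of 21024. With probes well above background on all 4 arrays, 6 member probes were lower, since the others were not in that set, and other histone genes gave 3 calls in place of 5. Spike-in normalization moved the median of all tested probes to −0.39 and the share of lower calls from 65.6% to 92.4%. The deposition list then had 7 calls in place of 4 and other histone genes had 3. The filter on all 4 arrays moved that share to 37.5%. The deposition list also had 7 calls under normexp and with the intensity trend, and 2 under the GC correction, where 1 member probe, A_73_112156 of H2AFY, was higher. Leaving out each pool in turn gave 2644 to 4989 calls over the array, the lowest without high-fertile pool 2, followed by 2872 without pool 1 of that group. Member calls were then 8 to 10 lower, and 0 higher in each case. The deposition list had 2 to 4 calls, with 2 without either high-fertile pool, and other histone genes 2 to 4, with 2 without high-fertile pool 1 or low-fertile pool 1. Signs turned at probes that passed no threshold: to −0.24 for H2AFV, −0.22 for H2AFJ and −0.24 for H2AFY (A_73_112156) under spike-in normalization, to −0.10 for H2AFJ under the GC correction, and, without high-fertile pool 2, to −0.17 for H2AFV and 0.00097 for H2AFY (A_73_P335516); with each pool left out in turn these 2 ran from −0.17 to 0.46 and from −0.26 to 0.00097. Under normexp the H3F3B probes A_73_P066544 and A_73_P399371 differed by −1.11 and −0.52, and under the GC correction by −1.03 and −0.66. The causes were not tested. With 2 pools a group and H2AFZ and H2AFX near background, signal over background limits what can be said of these 2 genes.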
